A study of Homo sapiens with 6 samples.

Results

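Transcripts of 10 genes of the circadian clock were followed in PANC-1, a human cell line of pancreatic ductal carcinoma, in cells given siRNA against SUV420H2 and in control cells. The genes were PER1, PER2, PER3, CRY1, CRY2, CLOCK, NR1D1, NR1D2, DBP and BHLHE40. They were chosen by name, with earlier results of these data known. All 10 were found by numeric gene ID among the 30727 genes listed. Poly(A) RNA was sequenced in 3 libraries labelled SUV420H2 knockdown and 3 labelled control. SUV420H2 (current symbol KMT5C) is a methyltransferase that adds methyl groups to lysine 20 of histone H4. What the control cells received, the siRNA sequence and the time of harvest are not stated in the labels. Nor do the labels say that libraries came from separate cultures, and p-values then cover only the spread among these libraries, which may be technical. PANC-1 is 1 cell line, and each library was taken at a single unstated time, so a level cannot be placed in the daily cycle, and a change of phase, of amplitude and of mean level cannot be told apart.

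The mammalian clock is a feedback loop of transcription. The activators CLOCK, or its relative NPAS2, and BMAL1 bind E-box elements as a pair and switch on the PER and CRY genes, whose proteins return to the nucleus and repress the pair. In a second loop the nuclear receptors NR1D1 and NR1D2 (REV-ERB alpha and beta) repress, and the ROR receptors activate, genes with ROR elements such as BMAL1 itself. The PAR-bZIP factor DBP and its opponent NFIL3 act on D-box elements, and BHLHE40 and BHLHE41 compete with the activators for E-boxes.

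The libraries held 27007534 to 38022772 counted reads in the knockdown and 20863594 to 25931995 in the control. Control replicate 3 stood apart from the rest of its group, with a chi-square per degree of freedom of 11.3 and 13.6 to its fellow controls, where control replicates 1 and 2 gave 1.55 and knockdown pairs gave at most 2.26. KMT5C had 6.03, 6.11 and 5.86 CPM (read counts over the TMM-scaled library size) in the knockdown, against 9.55, 7.23 and 12.7 CPM in the control (log2 fold change −0.72, edgeR adjusted p = 0.00227). All 6 markers fixed for the cell line (KRT7, KRT8, KRT18, KRT19, EPCAM and VIM) passed the count filter, with a summed level of 9418 to 9782 CPM in the knockdown and 7533 to 8755 CPM in the control. They moved apart within that sum: EPCAM (5.10-fold), KRT18 (2.96-fold), KRT8 (2.90-fold) and KRT7 (2.44-fold) rose, and VIM (0.706 of the control level) and KRT19 (0.802) fell, all by edgeR. Astrocyte markers summed to at most 0.479 CPM in the knockdown and 0.120 CPM in the control, and AQP4 had no read. Neuron markers summed to 127 to 134 CPM in the knockdown and 225 to 271 CPM in the control, nearly all from TUBB3 and MAP2. Markers of microglia and leukocytes summed to 127 to 134 CPM in the knockdown and 92.9 to 104 CPM in the control, nearly all from the lysosomal CD68. Those of fibroblasts and endothelium summed to 7.83 to 8.32 CPM in the knockdown and 1.98 to 2.23 CPM in the control, mostly from PDGFRB. The part of all these marker changes in the clock gene changes was not tested.

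Of the 10 clock genes, 7 were higher and 1 was lower in the knockdown than in the control, and 2 did not pass the test. CRY2 and PER2 rose most, 2.75-fold and 2.15-fold, and CLOCK fell to 0.485 of the control level. PER1, CRY1, NR1D2, DBP and BHLHE40 rose by 1.43-fold to 1.57-fold, while PER3 and NR1D1 did not pass. Over all 15190 genes tested, edgeR's quasi-likelihood test called 67.3% in either direction, 33.1% higher and 34.2% lower, at an adjusted p under 0.05. The share of clock genes called at all, 8 of 10, is therefore to be read against a background of most genes, and the 7 that rose against 33.1%. The median log2 fold change was 0.56 over the 10 genes and −0.01 over all genes tested. Because the members were chosen with earlier results of these data known, these comparisons are no test of the set. Of 10 other clock factors tested, 2 rose and 8 fell. The CPM ranges of knockdown and control did not overlap for any of the 10, as for 71.3% of all genes tested. Tested against a change of 1.5-fold, PER2, CRY2 and CLOCK passed and the other 5 called genes did not. Of all 15190 genes tested, 1606 passed that test higher and 1392 lower.

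**Figure D1:**
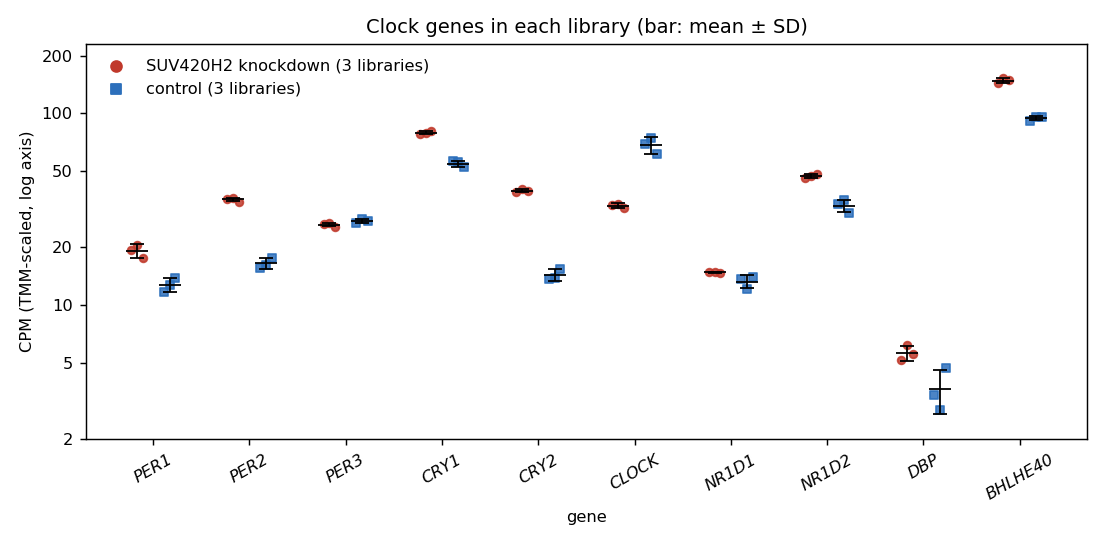
CPM of the 10 clock genes in each library on a log axis, knockdown (red circles) left of control (blue squares), with bars for mean ± SD over 3 libraries. CLOCK is the gene whose knockdown libraries lie far below the controls, at 32.1 to 33.7 CPM in the knockdown against 61.1 to 74.3 CPM in the control, and PER2 and CRY2 show the widest gaps upward.

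Among the activators, CLOCK was the only one of the 10 genes to fall. CLOCK (gene ID 9575, GRCh38 chromosome 4, 55427903 to 55546909), a bHLH-PAS activator, had 33.4, 33.7 and 32.1 CPM in the knockdown, against 69.5, 74.3 and 61.1 CPM in the control. Every knockdown library lay at about the same level, and the spread was among the controls. It fell by 1.04 on the log2 scale (SE 0.0707, edgeR adjusted p = 2.30e-07), at the 5.44th percentile of the fold changes of all genes tested, with a range of −1.12 to −0.98 when single libraries were left out. TMEM165 on the opposite strand overlaps CLOCK and also fell (−0.73, SE 0.0502, edgeR adjusted p = 2.57e-07). The exons of the 2 genes share 76 bases, 0.646% of the exonic bases of CLOCK, in GENCODE 29. In RefSeq the spans of the 2 genes, introns included, overlap by 25495 bases. Which annotation was counted is not stated, so the shared part of the counts is not known.

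The other activators, which are not among the 10 genes, were lower too. NPAS2, which can take the place of CLOCK, had 106 ± 4.31 CPM in the knockdown and 221 ± 7.88 CPM in the control (SD, n = 3 each), a change of −1.06 on the log2 scale (SE 0.0471, edgeR adjusted p = 9.98e-09). BMAL2 had 90.6 ± 2.39 CPM in the knockdown and 166 ± 4.49 CPM in the control (−0.88, SE 0.0436, edgeR adjusted p = 2.27e-08). BMAL1, the usual partner of CLOCK, fell less, with 7.65, 7.55 and 7.75 CPM in the knockdown, against 10.5, 10.4 and 8.70 CPM in the control (−0.36, SE 0.0919, edgeR adjusted p = 0.00472). All 4 activator genes were thus below the control in all 3 knockdown libraries. Over all genes tested, groups did not overlap in either direction for 71.3%, and 34.2% were called lower. The ratio of CLOCK to NPAS2 within a library overlapped between groups, with a log2 ratio of −2.86 ± 0.0493 in the knockdown and −2.87 ± 0.195 in the control (SD, n = 3 each). The difference of 0.015 was −0.013 without knockdown replicate 1 and −0.092 without control replicate 3.

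The promoter windows shown here for 6 genes run from 250 bases before to 50 bases after an annotated start, 300 bases in all, from RefSeq on GRCh38.p14, and were searched on both strands. The first motif was the E-box, CACGTG. A variant that differs from it in the last base and is also bound by the activators, here called the E-prime box, was searched as the letters CACGTT. Matches to these and to the ROR core (TAGGTCA, the conserved part of the ROR element) are in capitals. CLOCK and CRY2 each have another window, not shown, that holds no match. CLOCK is shown because it fell and its window holds an E-prime box (second annotated start, chr4:55545883-55546182, minus strand):
CLOCK: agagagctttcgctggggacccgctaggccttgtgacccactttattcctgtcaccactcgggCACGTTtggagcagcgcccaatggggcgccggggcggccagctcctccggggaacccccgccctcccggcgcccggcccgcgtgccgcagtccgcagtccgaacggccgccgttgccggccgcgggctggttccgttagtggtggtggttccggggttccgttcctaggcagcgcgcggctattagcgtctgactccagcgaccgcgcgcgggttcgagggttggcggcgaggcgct

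**Figure D2:**
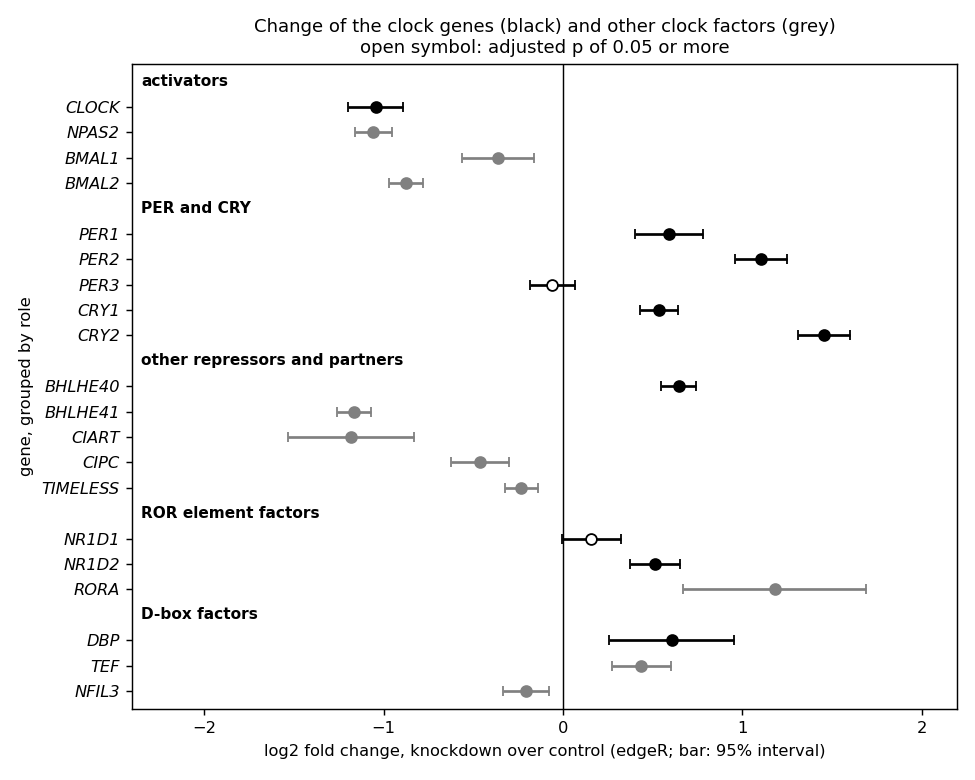
Log2 fold change of knockdown over control from edgeR with its 95% interval, for the 10 clock genes (black) and 10 other clock factors (grey), by role. All 4 activators lie left of 0, while PER1, PER2, CRY1 and CRY2 lie right of it, and PER3 and NR1D1 (open symbols) did not pass at an adjusted p of 0.05.

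Of the 3 PER genes, whose proteins form the repressing complex with the CRY proteins, PER1 and PER2 rose and PER3 did not pass. PER2 (gene ID 8864, chromosome 2, 238244044 to 238300065) had 35.8, 36.2 and 34.6 CPM in the knockdown, against 15.5, 16.3 and 17.7 CPM in the control. The groups were far apart, with a log2 fold change of 1.11 (SE 0.0655, edgeR adjusted p = 8.08e-08). PER1 (gene ID 5187, chromosome 17, 8140472 to 8152404), the PER gene known for fast induction by outside signals, had 19.4, 20.7 and 17.6 CPM in the knockdown, against 11.7, 12.7 and 13.8 CPM in the control. The groups were closer than for PER2 but did not overlap, and the rise was 0.59 on the log2 scale (SE 0.0861, edgeR adjusted p = 9.84e-05). PER3 (gene ID 8863, chromosome 1, 7784291 to 7845177), in mice the least needed of the PER genes for rhythm, had 26.5, 26.7 and 25.7 CPM in the knockdown, against 26.7, 28.1 and 27.5 CPM in the control. Its highest knockdown and lowest control library were equal to 3 digits, and the log2 fold change of −0.06 did not pass (95% interval −0.19 to 0.07, edgeR adjusted p = 0.372).

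The parts of PER2 and PER3 in the PER transcripts differed between groups without overlap. Per length, in the deposited RPKM, PER2 made up 40.2%, 39.7% and 41.0% of the summed PER level in the knockdown, against 26.6%, 26.3% and 27.5% in the control. PER3 made up 29.5% to 30.6% in the knockdown, against 43.1% to 46.1% in the control. In the control PER3 was the leading PER gene, and in the knockdown PER2 was. The log2 ratio of PER2 to PER3 within a library was 0.42 ± 0.00346 in the knockdown and −0.75 ± 0.0855 in the control, and that of PER1 to PER2 was −0.44 ± 0.0817 in the knockdown and 0.07 ± 0.0284 in the control (SD, n = 3 each). The windows of PER1 and PER2 are shown because both genes rose and each holds 1 match, an E-box in PER1 (chr17:8152355-8152654, minus strand) and an E-prime box in PER2 (chr2:238288561-238288860, minus strand):
PER1: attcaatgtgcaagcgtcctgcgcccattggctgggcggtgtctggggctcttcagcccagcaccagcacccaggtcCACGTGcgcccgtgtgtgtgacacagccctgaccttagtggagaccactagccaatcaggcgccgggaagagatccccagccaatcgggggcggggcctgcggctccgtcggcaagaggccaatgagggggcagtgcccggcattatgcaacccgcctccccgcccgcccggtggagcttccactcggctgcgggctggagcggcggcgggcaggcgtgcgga
PER2: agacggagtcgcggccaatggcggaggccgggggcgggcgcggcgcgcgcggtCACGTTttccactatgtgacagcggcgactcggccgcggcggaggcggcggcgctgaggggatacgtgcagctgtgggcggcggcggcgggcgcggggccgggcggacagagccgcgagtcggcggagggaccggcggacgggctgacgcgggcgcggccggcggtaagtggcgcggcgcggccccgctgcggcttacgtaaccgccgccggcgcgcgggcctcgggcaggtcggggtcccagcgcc

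Both CRY genes, which encode the strongest repressors of the activator pair, rose. CRY2 (gene ID 1408, chromosome 11, 45847118 to 45883244) had 38.9, 40.5 and 39.4 CPM in the knockdown, against 13.7, 13.9 and 15.5 CPM in the control. This was the largest change among the 10 genes, with a log2 fold change of 1.46 (SE 0.0656, edgeR adjusted p = 1.06e-08), at the 95.7th percentile of all genes tested. CRY1 (gene ID 1407, chromosome 12, 106991364 to 107093549) had 78.2, 78.6 and 80.8 CPM in the knockdown, against 56.2, 55.6 and 52.4 CPM in the control. It rose by 0.53 on the log2 scale (SE 0.0477, edgeR adjusted p = 2.08e-06), less than CRY2. CRY1 stayed the more abundant of the pair per length, but CRY2 made up 27.4% ± 0.557 of the summed CRY level in the knockdown and 16.6% ± 1.47 in the control (SD, n = 3 each). The second annotated start of CRY2 is shown since the gene rose most and its window (chr11:45847225-45847524, plus strand) holds an E-prime box and a ROR core:
CRY2: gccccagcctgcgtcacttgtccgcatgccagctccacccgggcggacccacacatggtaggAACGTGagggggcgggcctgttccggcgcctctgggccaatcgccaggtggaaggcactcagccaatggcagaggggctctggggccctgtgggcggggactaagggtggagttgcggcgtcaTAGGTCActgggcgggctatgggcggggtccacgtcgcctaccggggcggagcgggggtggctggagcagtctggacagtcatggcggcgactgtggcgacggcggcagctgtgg

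BHLHE40 and BHLHE41, paralogs that both repress at E-boxes, went opposite ways. BHLHE40 (DEC1, gene ID 8553, chromosome 3, 4979437 to 4985323) was the most abundant of the 10 genes, with 143, 152 and 149 CPM in the knockdown, against 91.7, 95.7 and 96.1 CPM in the control. All knockdown libraries were higher, by 0.65 on the log2 scale (SE 0.0443, edgeR adjusted p = 2.49e-07). BHLHE41 (DEC2), which is not among the 10, had 67.8, 69.2 and 66.3 CPM in the knockdown, against 149, 151 and 156 CPM in the control (−1.17, SE 0.0430, edgeR adjusted p = 2.86e-09). Their summed level per length was 65.4 ± 1.62 RPKM in the knockdown and 69.1 ± 1.15 RPKM in the control (SD, n = 3 each), while the part of BHLHE40 in it was 73.1% ± 0.613 in the knockdown and 43.6% ± 0.377 in the control. The antisense gene BHLHE40-AS1 rose by 0.90 (SE 0.125, edgeR adjusted p = 6.90e-05) to 6.10 ± 0.485 CPM in the knockdown, against 3.22 ± 0.495 CPM in the control. Its exons share 4 bases with those of BHLHE40. Both paralogs hold an E-box in the window, BHLHE40 at chr3:4979187-4979486 (plus strand) and BHLHE41 at chr12:26124988-26125287 (minus strand), and are shown as a pair with opposite changes:
BHLHE40: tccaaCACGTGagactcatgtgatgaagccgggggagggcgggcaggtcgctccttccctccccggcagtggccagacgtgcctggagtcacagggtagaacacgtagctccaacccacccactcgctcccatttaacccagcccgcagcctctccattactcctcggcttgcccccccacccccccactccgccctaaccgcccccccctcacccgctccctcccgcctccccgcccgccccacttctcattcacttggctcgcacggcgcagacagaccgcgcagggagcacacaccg
BHLHE41: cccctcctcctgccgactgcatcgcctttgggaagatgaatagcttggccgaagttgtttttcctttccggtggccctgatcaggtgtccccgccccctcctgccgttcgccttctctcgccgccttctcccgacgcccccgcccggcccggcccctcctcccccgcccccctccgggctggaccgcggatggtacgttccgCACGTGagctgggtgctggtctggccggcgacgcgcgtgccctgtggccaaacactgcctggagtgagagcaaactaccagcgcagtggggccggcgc

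Of the 2 REV-ERB genes, NR1D2 rose and NR1D1 did not pass. NR1D2 (gene ID 9975, chromosome 3, 23945286 to 23980617) had 46.0, 47.1 and 48.2 CPM in the knockdown, against 33.6, 35.1 and 30.3 CPM in the control (log2 fold change 0.51, SE 0.0628, edgeR adjusted p = 2.58e-05). NR1D1 (gene ID 9572, chromosome 17, 40092793 to 40100589) had 14.9, 14.9 and 14.8 CPM in the knockdown, against 13.7, 12.1 and 13.99 CPM in the control. The knockdown libraries were level and slightly above the controls (0.16, 95% interval −0.01 to 0.33, edgeR adjusted p = 0.0835). Without control replicate 3 NR1D1 passed (0.19, edgeR adjusted p = 0.0256), while over the other alternatives but the 1.5-fold test the adjusted p reached at most 0.274. THRA, on the opposite strand, shares 263 exonic bases with NR1D1, 9.49% of its exonic bases. Whether strand was used in counting is not stated, and without it reads there cannot be told apart. THRA itself did not pass (0.18, SE 0.0978, edgeR adjusted p = 0.122). RORA, an activator at the same elements, rose by 1.18 (SE 0.232, edgeR adjusted p = 0.000902) from low counts, with 46, 33 and 28 reads in the knockdown, against 12, 12 and 11 reads in the control. RORB had at most 2 reads in any library.

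DBP (gene ID 1628, chromosome 19, 48630030 to 48637379), an activator at D-boxes and a standard readout of E-box activity, was the least abundant of the 10. It had 198, 168 and 168 reads or 5.17, 6.18 and 5.59 CPM in the knockdown, against 85, 59 and 120 reads or 3.40, 2.84 and 4.70 CPM in the control. The lowest knockdown and highest control library were close, and the rise of 0.61 (SE 0.158, edgeR adjusted p = 0.00545) ran from 0.48 without control replicate 2 to 0.83 without control replicate 3. SPHK2 on the opposite strand rose by 0.35 (SE 0.0861, edgeR adjusted p = 0.00389). SPHK2 shares 661 exonic bases with DBP, 10.1% of the exonic bases of DBP, in the GENCODE release named above for CLOCK. In RefSeq the spans of both genes overlap by only 376 bases, so the shared part of the counted models is not known. If strand was not used in counting, reads in the shared bases cannot be told apart. TEF, a relative of DBP, rose by 0.44 (SE 0.0741, edgeR adjusted p = 0.000311), and NFIL3, the repressor at D-boxes, fell by 0.21 on the log2 scale (SE 0.0586, edgeR adjusted p = 0.00901). HLF, another PAR-bZIP gene, had at most 1 read in any library. The log2 ratio of DBP to NFIL3 per library was −2.19 ± 0.0890 in the knockdown and −3.06 ± 0.366 in the control (SD, n = 3 each).

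Of the 13 other clock transcription factors listed, 10 were tested, 2 rose (RORA and TEF) and 8 fell, with a median log2 fold change of −0.41, where 33.1% of all genes tested rose and 34.2% fell. Besides the activators, BHLHE41 and NFIL3, those that fell encode repressors or partners of the CLOCK complex. CIART (CHRONO), a repressor of the CLOCK and BMAL1 pair, had 1.18, 1.47 and 1.63 CPM in the knockdown, against 3.48, 3.33 and 2.82 CPM in the control (−1.18, SE 0.160, edgeR adjusted p = 5.73e-05). CIPC, which binds CLOCK, fell by 0.46 on the log2 scale (SE 0.0740, edgeR adjusted p = 0.000210), and TIMELESS, which also acts at replication forks, fell by 0.23 (SE 0.0416, edgeR adjusted p = 0.000484). Among the repressor genes described, PER1, PER2, CRY1, CRY2, BHLHE40 and NR1D2 thus rose, BHLHE41, CIART, CIPC and NFIL3 fell, and PER3 and NR1D1 did not pass.

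Per length, BHLHE40 and CRY1 led the 10 genes in both groups, with 47.8 ± 1.46 and 23.6 ± 0.435 RPKM in the knockdown and 30.2 ± 0.679 and 16.1 ± 0.728 RPKM in the control (SD, n = 3 each). CRY2 was at rank 3 in the knockdown at 8.88 ± 0.176 RPKM and at rank 7 in the control at 3.19 ± 0.190 RPKM. CLOCK was at rank 9 in the knockdown at 2.87 ± 0.0702 RPKM and at rank 3 in the control at 5.86 ± 0.619 RPKM. DBP was last in both, at 2.19 ± 0.198 RPKM in the knockdown and 1.40 ± 0.354 RPKM in the control. Most neighbours in the order were apart, but in the knockdown the ranges of PER2 and NR1D1 and of PER3 and PER1 overlapped, and in the control those of CLOCK and NR1D2 and of PER1 and PER2 did.

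Set side by side, the summed level of PER1, PER2, PER3, CRY1 and CRY2 was 45.2, 46.1 and 45.5 RPKM in the knockdown, against 28.3, 28.7 and 28.0 RPKM in the control. The summed level of CLOCK, NPAS2, BMAL1 and BMAL2 was 37.1, 39.2 and 37.8 RPKM in the knockdown, against 73.5, 73.6 and 72.6 RPKM in the control. The order of the 2 sums was thus opposite. The ratio of PER and CRY to activator transcripts was 1.22, 1.17 and 1.21 in the knockdown and 0.385, 0.390 and 0.386 in the control. The order holds for PER and CRY only, since other repressors were left out. BHLHE40 and BHLHE41 summed to 65.4 ± 1.62 RPKM in the knockdown and 69.1 ± 1.15 RPKM in the control. With them added, repressor transcripts would exceed activator transcripts in both groups. These sums were chosen with the single genes' changes known and are given with no test.

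**Figure D3:**
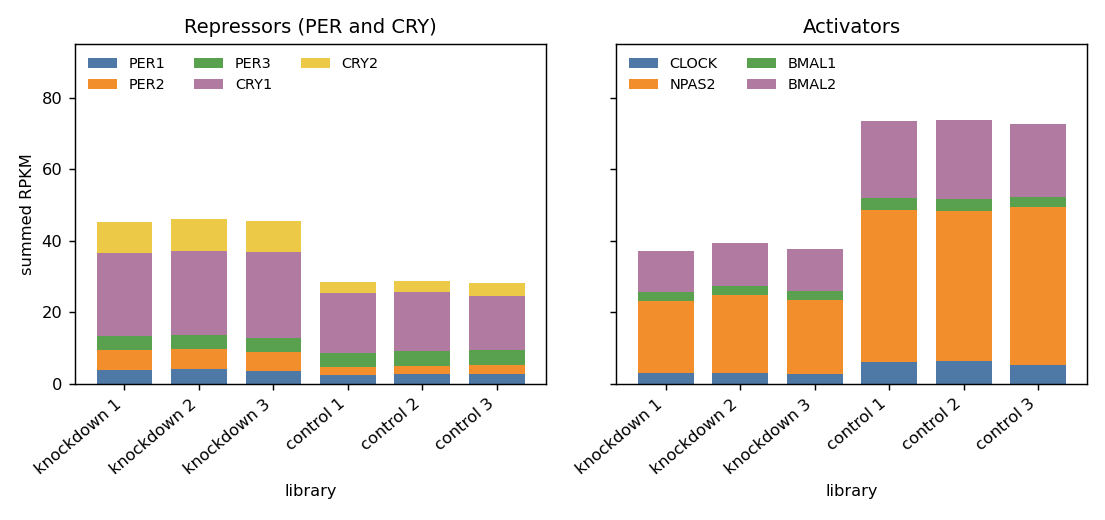
Summed RPKM of the PER and CRY genes (left) and of the activators (right) in each library, knockdown before control, with each gene as a coloured part of the bar. The repressor bars reach 45.2 to 46.1 in the knockdown and 28.0 to 28.7 in the control, while the activator bars reach 37.1 to 39.2 in the knockdown and 72.6 to 73.6 in the control.

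Whether 2 related or opposing genes changed by unequal amounts was asked with 9 ratios within libraries, which do not depend on how libraries are scaled. Groups did not overlap for 8 of the 9 pairs, and the exception was CLOCK to NPAS2 (exact two-sided permutation p = 0.9). No share was computed for ratios of other genes, and the CPM of 71.3% of all single genes tested did not overlap either. The count is therefore not particular to clock genes as far as these values show. For the other pairs the exact permutation p was 0.1, the smallest that 3 against 3 allows, and 0.113 after Benjamini-Hochberg adjustment over the 9 pairs, so none can pass in this design. The largest difference was in BHLHE40 to BHLHE41, 1.44 ± 0.0449 in the knockdown and −0.37 ± 0.0221 in the control on the log2 scale, a difference of 1.81. CRY1 to CRY2 stood at 1.41 ± 0.0403 in the knockdown and 2.33 ± 0.151 in the control. NR1D1 to NR1D2 stood at −0.65 ± 0.0417 in the knockdown and −0.30 ± 0.212 in the control, and NR1D1 to BMAL1 at 1.04 ± 0.0250 in the knockdown and 0.51 ± 0.237 in the control (SD, n = 3 each). Most ratios varied more among the controls than among the knockdown libraries.

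**Figure D4:**
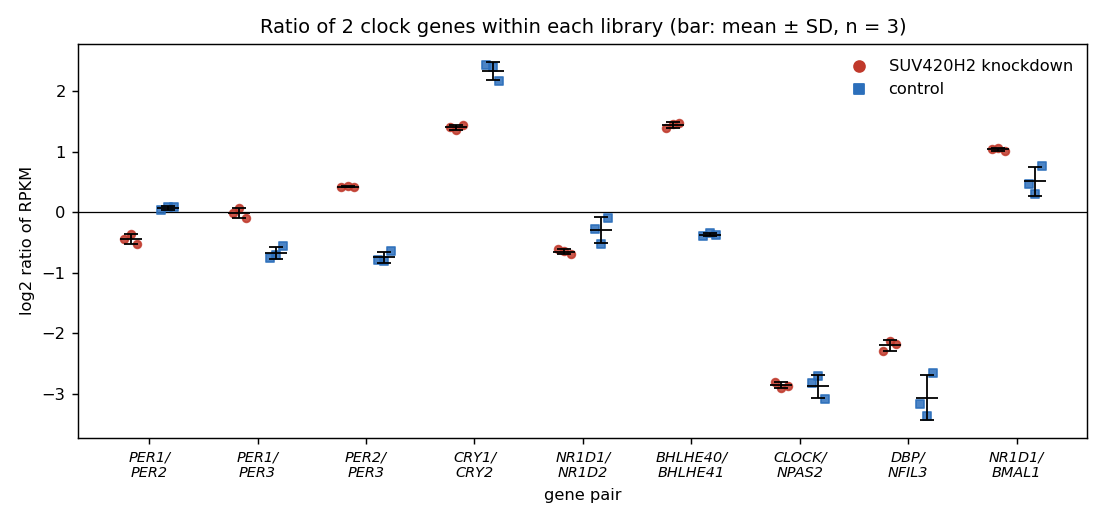
Log2 ratio of the RPKM of 2 genes within each library, knockdown (red circles) left of control (blue squares), with mean ± SD over 3 libraries. Among the 9 pairs, CLOCK to NPAS2 is the one in which the groups overlap, and BHLHE40 to BHLHE41 shows the widest gap, with means of 1.44 in the knockdown and −0.37 in the control.

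E-box letters lay near the starts of genes that rose and of genes that fell. An E-box or E-prime box lay in at least 1 window for 8 of the 10 clock genes (PER1, PER2, CRY1, CRY2, CLOCK, NR1D1, NR1D2 and BHLHE40), against 14.5% of the 27305 genes with a window. The 8 include genes that rose, the gene that fell and 1 that did not pass. Counted by window, 57.1% of the 14 clock gene windows held such a match, against 12.2% of all windows. NR1D2 held 2 E-boxes and a D-box (TTATGTAA, here as TTACATAA) in its second window, and PER3 a D-box, against 0.886% of the 35116 windows for the D-box. The E-box itself was in 7.26% and the E-prime box in 5.34% of all windows, the ROR core in 1.85%, and the cAMP response element TGACGTCA, also in 1.85% of windows, in none of those of the 10 genes. Of the 10 other clock factors tested, BHLHE41, CIART (3 matches), CIPC and TIMELESS, which fell, and TEF, which rose, held an E-box. A match describes letters in these windows and says nothing of binding.

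Of 18 listed enzymes that set the stability of clock proteins, 17 were tested, 6 rose and 8 fell, with a median of 0.01. Read against the 33.1% of all genes tested that rose and the 34.2% that fell, the count of rises is near the background. FBXW7, a ubiquitin ligase subunit that acts on NR1D1 protein in mice, had 37.3 ± 1.94 CPM in the knockdown and 14.2 ± 0.583 CPM in the control (log2 fold change 1.39, SE 0.0672, edgeR adjusted p = 1.77e-08). BTRC, the ligase subunit that marks PER proteins for breakdown, had 87.6 ± 0.998 CPM in the knockdown and 44.9 ± 3.48 CPM in the control (0.97, SE 0.0584, edgeR adjusted p = 9.57e-08). USP2, a deubiquitinase whose transcript cycles with the clock in mice, had 8.48 ± 0.755 CPM in the knockdown and 2.23 ± 0.447 CPM in the control (1.93, SE 0.138, edgeR adjusted p = 3.58e-07). CSNK2A1, a kinase subunit that phosphorylates clock proteins, fell by 0.48 on the log2 scale (SE 0.0472, edgeR adjusted p = 4.37e-06). Tested against 1.5-fold, 3 of the higher and 0 of the lower genes passed with glmTreat, the same counts as at an unadjusted p under 0.05. Of all 15190 genes tested, 1606 passed glmTreat higher and 1392 lower at an adjusted p under 0.05. Without knockdown replicate 1 the count of lower genes was 5.

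The 14 corepressors and chromatin partners were all tested, 6 rose and 5 fell, with a median of 0.07. Against 33.1% higher and 34.2% lower over all genes tested, both counts are near the background. Against 1.5-fold 0 passed in either direction with glmTreat (0 higher and 1 lower at an unadjusted p under 0.05). SFPQ (−0.37, SE 0.0382, edgeR adjusted p = 7.06e-06) and SIN3A (−0.36, SE 0.0442, edgeR adjusted p = 2.83e-05), found in PER complexes in mice, fell, while NONO, the partner of SFPQ, rose by 0.20 (SE 0.0374, edgeR adjusted p = 0.000702). The count of rises was 2 without knockdown replicate 2 and 3 without knockdown replicate 3.

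Of 16 clock output genes, 14 were tested, 8 rose and 3 fell, with a median of 0.17, where 33.1% of all genes tested rose and 34.2% fell. WEE1, a mitotic kinase driven through E-boxes in mouse liver, had 204 ± 2.40 CPM in the knockdown and 60.3 ± 2.94 CPM in the control (1.76, SE 0.0474, edgeR adjusted p = 3.24e-10). DDIT4, a stress-induced inhibitor of mTORC1, had 147 ± 5.50 CPM in the knockdown and 344 ± 22.9 CPM in the control (−1.22, SE 0.0541, edgeR adjusted p = 9.65e-09). CES2, a carboxylesterase (−0.89, SE 0.0609, edgeR adjusted p = 2.49e-07), and PPARA, a receptor of fatty acid metabolism (−0.85, SE 0.0670, edgeR adjusted p = 7.63e-07), also fell. Known outputs of the loop thus lay on both sides. Against 1.5-fold, 1 that rose (WEE1) and all 3 that fell passed. Of all 15190 genes tested, 1606 passed that test higher and 1392 lower.

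Signals that reset the clock act in part through PER1, by the glucocorticoid receptor and by CREB. Of 14 CREB and serum response genes, 13 were tested and 10 rose and 0 fell in edgeR (1 lower at an unadjusted p under 0.05, and 0 in DESeq2 and in limma-voom), with a median of 0.97, where 33.1% of all genes tested rose and 34.2% fell. NR4A1, an orphan nuclear receptor, had 10.1 ± 0.143 CPM in the knockdown and 1.04 ± 0.0231 CPM in the control (3.28, SE 0.111, edgeR adjusted p = 1.61e-09). ATF3, a stress-induced bZIP factor, had 64.8 ± 1.42 CPM in the knockdown and 18.99 ± 0.450 CPM in the control (1.77, SE 0.0540, edgeR adjusted p = 8.09e-10). Neither gene's knockdown values overlapped its control values, as for 71.3% of all genes tested. The zinc finger factor EGR1 (2.08, SE 0.136, edgeR adjusted p = 1.77e-07) and the AP-1 subunit FOSB (2.65, SE 0.204, edgeR adjusted p = 6.37e-07) rose too. FOSB did so from low counts, with 139, 92 and 92 reads in the knockdown, against 11, 16 and 11 reads in the control. Without control replicate 3, or with no low-count filter, 1 gene of this list was lower. Of 10 glucocorticoid response genes, 8 were tested, 5 rose (PER1 among them) and 3 fell, with a median of 0.24, and 0 passed against 1.5-fold in either direction with glmTreat (0 at an unadjusted p under 0.05). The count of rises was 3 without knockdown replicate 2. SGK1, a kinase, rose by 0.59 (SE 0.105, edgeR adjusted p = 0.000455) and NR3C1, the receptor itself, by 0.28 (SE 0.0480, edgeR adjusted p = 0.000384), whereas ERRFI1, an inhibitor of the EGF receptor, fell by 0.57 on the log2 scale (SE 0.0434, edgeR adjusted p = 6.07e-07). PER1 thus stood higher beside immediate early genes that were higher, and whether the changes are linked was not tested.

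**Figure D5:**
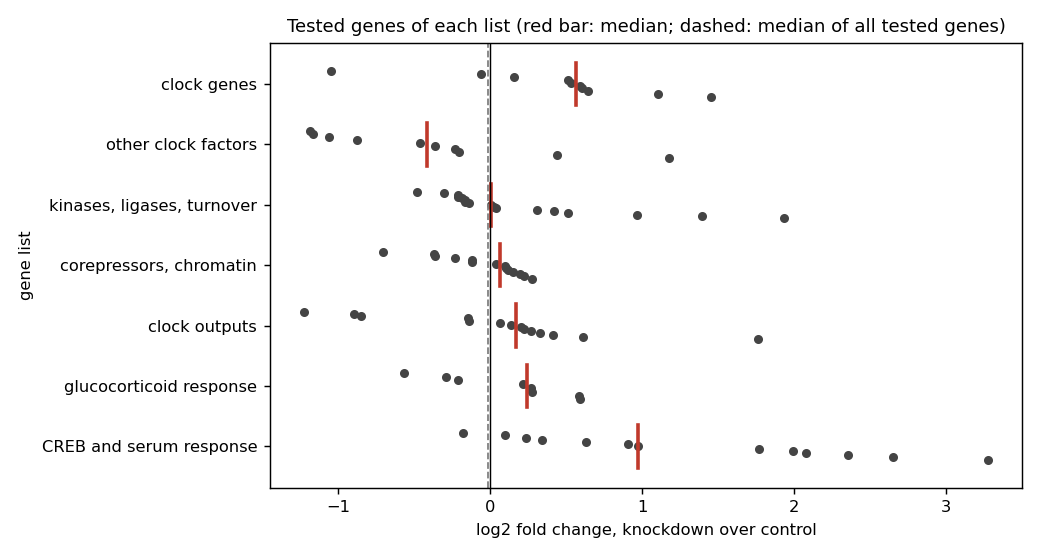
Log2 fold change of knockdown over control for each tested gene of 7 lists, with the list's median as a red bar and the median of all tested genes (−0.01) as a dashed line. The clock genes have a median of 0.56, the other clock factors −0.41 and the CREB and serum response genes 0.97, while the enzyme and corepressor lists centre near 0.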

How the data were processed

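Per the submitters' processing notes, the aligner was GSNAP, with no version named, and the genome build was GRCh38. Per the file headers, the authors deposited for each gene model the count of uniquely aligned reads and a size-factor-adjusted RPKM. The annotation release, strand setting and filters are not given there. The RPKM equal the counts times 1 constant per gene and 1 per library, so tests used the counts and RPKM served for levels per length. Unique alignment drops reads shared with near-identical copies.

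Gene IDs were matched to RefSeq symbols of GRCh38.p14 (27814 of 30727). Counts passed filterByExpr (minimum count 10, minimum total 15; 15190 genes), were scaled by TMM and tested two-sided with edgeR 4.0.16 in R 4.3.3 (glmQLFit, glmQLFTest) over the whole table, knockdown over control, with Benjamini-Hochberg adjustment at 0.05. The script was tested on simulated data. Each SE belongs to a log2 fold change. Replicate numbers follow accession order and pair nothing. Alternatives were DESeq2 1.42.0 (size factors, Wald test), library totals, upper-quartile scaling, no low-count filter, limma 3.58.1 (voom), glmTreat at 1.5-fold and leaving out each library. Named genes were the 10, all other clock factors, the 4 smallest p of each further list, KMT5C and overlapping genes, some of which are not reported here. Members and lists were chosen with earlier results of these data known.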

Additional observations from a re-analysis of the deposited data

How the results depend on the processing

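Against a change of 1.5-fold, 2 clock genes (PER2 and CRY2) were higher and 1 (CLOCK) lower, and over all genes 1606 were higher and 1392 lower. The count of higher clock genes was otherwise 7, or 8 without control replicate 3 (NR1D1 added), and the count of lower ones 1 throughout, so that leaving out single libraries gave 7 to 8 and 1 to 1. Over all genes, leaving out single libraries gave 4533 to 5612 higher and 4651 to 5665 lower, both highest without control replicate 3. Under every scaling the median over all genes lay within 0.0332 of 0. Against 1.5-fold PER1, CRY1, NR1D2, DBP and BHLHE40 did not pass (adjusted p 0.735, 1, 1, 0.702 and 0.132), and KMT5C did not either (0.305). Without that test the highest adjusted p of the 5 clock genes over the alternatives was 0.00102, 5.17e-05, 0.000384, 0.0267 and 1.08e-05. The difference in the ratio of CLOCK to NPAS2 ran from −0.092 to 0.098 when single libraries were left out, and the other 8 ratios kept their sign. No paired analysis was possible because the labels give no replicate numbers. Among the clock genes and other clock factors tested, RORA, CIART and DBP rest on the fewest reads, which limits their precision.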
